A study of Mus musculus with 15 samples.

Results

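The messenger RNAs of the proteasome were followed in mouse 2-cell embryos. The genes are the protein-coding rows of the deposited table whose symbol begins with Psma, Psmb, Psmc, Psmd, Psme, Psmf or Psmg and a digit, which gave 50 of the 53023 genes of the table and of its 21963 protein-coding genes. They comprise 14 standard subunits of the core particle, 17 of the regulatory particle, 5 core subunits made in certain tissues only, 6 genes of activators and of an inhibitor, and 7 assembly chaperones. The remaining gene, Psmc3ip, matches by its name and encodes a cofactor of meiotic recombination rather than a proteasome subunit. Its level was 74.8 to 123 FPKM in the 6 libraries, and it enters none of the role groups below.

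The proteasome degrades proteins that carry ubiquitin chains. Its core particle is a barrel of 4 rings. The outer rings, of alpha subunits, gate the entrance, and the inner rings, of beta subunits, hold the proteolytic sites. The regulatory particle caps the barrel. Its base contains a ring of ATPases that unfold the substrate, and its lid removes the ubiquitin chain. In early embryos ubiquitin-dependent degradation takes part in the clearance of maternal proteins.

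The study asked what happens to 2-cell embryos of the ICR strain when filamentous actin in the nucleus is disturbed. Each library holds 5 pooled embryos, fertilised in vitro and collected 32 hours later, and injected groups had received mRNA 2 hours after insemination. The 6 libraries form 3 pairs of 2 pools (A1 and A2, B1 and B2, C1 and C2), whose titles and annotated mRNA do not match. Pair A is titled Wt but annotated Non-injected. Pair B is titled R62D, an actin mutant that cannot polymerise, but annotated actinWT-HA-NLS. Pair C is titled Non-injected control but annotated actinR62D-HA-NLS, where HA is an epitope tag and NLS directs the actin to the nucleus. The injected actin is translated beside the embryo's own actin, which all groups keep. The text therefore compares pairs and prefers neither reading. No label says whether both pools of a pair stem from different matings or days. The p-values rest on the spread between pools within all 3 pairs, moderated by that of all tested genes. They cover no spread beyond such pools. The other 9 libraries of the series were not analysed here.

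Levels are in FPKM, fragment counts divided by gene length and library total. Their comparison between genes depends on the gene length used. In each list of values replicate 1 comes before replicate 2. Libraries held between 907210 and 1555431 assigned reads, recovered from FPKM and gene length. In a 2 kb gene, 1 read equals 0.321 to 0.551 FPKM. A2 and C2 stood apart from the other libraries on principal component 1 (scores of 49.3 and 49.7 against -32.7 to -11.1). All 8 markers of the 2-cell-stage programme and all 9 oocyte and early embryo markers were detected. Their summed levels were 670.3 to 1736 FPKM and 534 to 1167 FPKM per library, and both sums were lowest in A2 and C2. The largest parts were Tcstv3 (403 to 760 FPKM) and Oosp1 (299 to 865 FPKM), respectively. Single markers did not all follow the sums. Zp3 was highest in A2 (142 FPKM), and Tcstv3 was higher in C2 (499 FPKM) than in C1 (405 FPKM). PCR reads without molecular identifiers are not independent molecules, so floors of 3 reads cover counting error only.

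The promoters of the subunit genes are shown first, because a short sequence recurs in some of them. RefSeq promoters (GRCm38.p6) matched 42 of the 50 genes, among them 25 of the 31 standard subunits. In the 250 bases before a start, the letters CCGGAAG, a site of ETS factors, were present on either strand for 9 of the 25 standard subunits (36%) and for 13 of the 42 genes (31%). For each motif a gene was counted if any of its RefSeq starts had the letters, so genes with more starts have more chances. Of the 9, Psma6 is a core subunit, and Psmc1, Psmc2, Psmc6, Psmd2, Psmd4, Psmd6, Psmd11 and Psmd12 belong to the regulatory particle. Windows of the same length held the letters in 7.83% of all 27025 genes, and in 17.3% of the 6825 protein-coding genes whose mean reached 1 FPKM in these embryos. The windows below belong to the standard subunits in which the stretch around the letters overlaps no annotated exon. Each is written along its gene's strand, with the motif in capitals, as CCGGAAG or, where it lies on the opposite strand, as its reverse complement CTTCCGG.
Psma6, chr12:55398653-55398739, plus strand: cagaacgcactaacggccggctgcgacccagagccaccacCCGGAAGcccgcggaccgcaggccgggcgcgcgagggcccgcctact
Psmc6, chr14:45329684-45329770, plus strand: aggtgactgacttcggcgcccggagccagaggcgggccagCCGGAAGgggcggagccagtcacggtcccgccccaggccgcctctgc
Psmd2, chr16:20651586-20651651, plus strand: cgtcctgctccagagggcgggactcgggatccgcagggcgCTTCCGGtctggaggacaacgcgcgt
Psmd4, chr3:95042693-95042779, minus strand: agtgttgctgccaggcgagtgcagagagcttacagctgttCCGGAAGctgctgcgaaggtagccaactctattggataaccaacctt
Psmd11, chr11:80428564-80428614, plus strand: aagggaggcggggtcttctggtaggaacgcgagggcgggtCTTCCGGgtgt
The start used for Psma6 lies inside the span that the deposited table gives for this gene. The core of the antioxidant response element, TGACNNNGC, through which Nfe2l1 is known to raise proteasome genes, was present for 4 of 25 standard subunits (16%), Psmb5, Psmb6, Psmc6 and Psmd12, against 13.6% of the expressed coding genes. The letters CCAAT were present for 10 (40%) against 42.2%. All 3 were searched on both strands, none of these strings contains another, and 1 promoter can hold more than 1 of them. These are matches of letters, with no measurement of binding.

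Proteasome mRNAs were abundant. The 31 standard subunits had a median level of 45.9 FPKM (mean over the 6 libraries), and 29 of them lay above 5.87 FPKM, the median of protein-coding genes whose mean reached 1 FPKM. The 2 below it were the lid subunits Psmd3 and Psmd13. Of all 50 genes, 14 ranked among the 1000 highest protein-coding genes, with Psma6 at rank 98, Psmb1 at rank 112 and Psmb2 at rank 141. Together the 50 genes made up 0.748% of the summed FPKM of protein-coding genes.

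**Figure D1:**
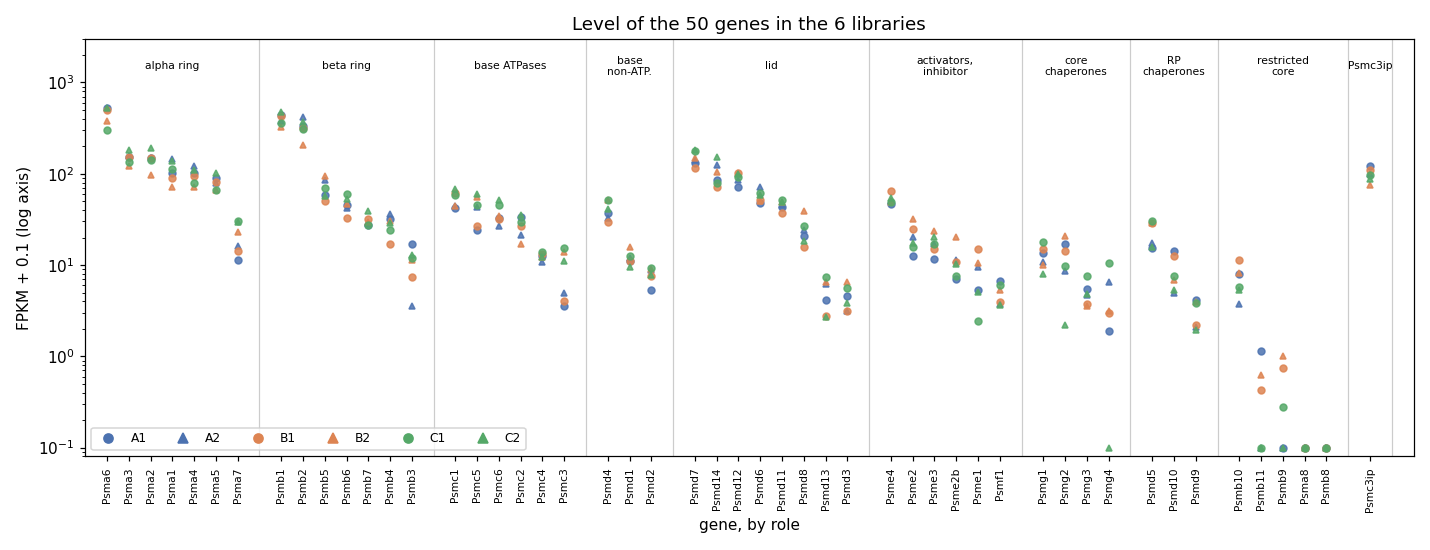
Level of each of the 50 genes (horizontal axis, grouped by role and ordered by mean level) in FPKM + 0.1 on a log axis. Colours are pairs and shapes are replicates. Within a role the subunits lie far apart, from 10.6 to 457 FPKM in the core particle, while the 6 libraries of 1 gene mostly lie close together. Psma8 and Psmb8 are at 0 in every library.

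Within the core particle, whose subunits are present in equal numbers in the finished barrel, mRNA levels spanned 43.2-fold. In the alpha ring the highest was Psma6 (chromosome 12, 55384222 to 55418454, plus strand, mm10). It measured 522 and 519.7 FPKM in the A libraries, 502 and 379 in the B libraries and 303 and 519 in the C libraries. Libraries A1, A2, B1 and C2 lay within a narrow band and C1 was lowest. Psma3, Psma2, Psma1, Psma4 and Psma5 followed with means of 149, 146, 109.8, 96.4 and 80.7 FPKM. Neighbours in this order overlapped in their ranges over libraries. With the gene lengths of the deposited table, Psma7 (chromosome 2, 180036373 to 180042433, minus strand) stood below them at a mean of 20.7 FPKM. Its highest library (30.3 FPKM) was then under the lowest library of any other alpha subunit (66 FPKM for Psma5).

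In the beta ring the highest were Psmb1 (chromosome 17, 15475721 to 15498276, minus strand) and Psmb2 (chromosome 4, 126677630 to 126709714, plus strand), which carry no active site. Psmb1 measured 438 and 379.9 FPKM in the A libraries, 427 and 324 in the B libraries and 363 and 479.9 in the C libraries. Psmb2 measured 330.1 and 413 FPKM in the A libraries, 317 and 207 in the B libraries and 311 and 373 in the C libraries. In both genes B2 was the lowest library. By mean level the catalytic subunits stood below these, but above Psmb4 and Psmb3, which carry no active site either. Psmb5, which cuts after hydrophobic residues, measured 58.4 and 85.1 FPKM in the A libraries, 50.3 and 94 in the B libraries and 69.5 and 56.4 in the C libraries, highest in B2 and lowest in B1. Psmb6, which cuts after acidic residues, measured 45.7 and 42.3 FPKM in the A libraries, 32.5 and 46.1 in the B libraries and 59.8 and 53.3 in the C libraries, so that both C libraries were above the other 4. Psmb7, which cuts after basic residues, lay at 27.1 to 38.7 FPKM. Psmb4 had a mean of 27.9 FPKM. Psmb3 (chromosome 11, 97703399 to 97713500, plus strand) was the lowest standard core subunit and varied most among them, at 16.9 and 3.43 FPKM in the A libraries, 7.33 and 11.3 in the B libraries and 12 and 12.6 in the C libraries. These rested on 38.9 reads in A1 and 8.83 reads in A2, so both extremes belong to pair A.

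The levels depend on the length used. The table gives Psma7 a length of 3072 bases and Psmb3 one of 2300 bases, where their principal coding transcripts in GENCODE M21 have 914 and 766 bases. Scaled by the latter, their mean levels became 69.6 and 31.8 FPKM, and that of Psma6 became 542 FPKM. The mean of Psma5 became 86.1 FPKM, so the wide gap between Psma7 and the other alpha subunits depends on the length used. Psmb3 remained the lowest of the 14 core subunits on this scale, and Psma6 the highest. For Psmb1 the M21 transcript (1758 bases) is longer than the length in the table (1036 bases). Its level on this scale was 237 FPKM, below that of Psmb2 (456 FPKM).

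Subunits of the regulatory particle had means of 4.39 to 149 FPKM. Among the ATPases of the base, Psmc1 had the highest mean (52.9 FPKM) and Psmc3 the lowest (8.71 FPKM), with Psmc5, Psmc6, Psmc2 and Psmc4 between them at 42.4, 37, 27.2 and 12.4 FPKM. Psmc4 was the steadiest of the 46 tested genes, at 12.5 and 10.8 FPKM in the A libraries, 13.2 and 12 in the B libraries and 13.7 and 12.2 in the C libraries. Its highest library was 1.27 times its lowest. The non-ATPase subunits of the base, the scaffolds Psmd1 and Psmd2 and the ubiquitin receptor Psmd4, had means of 11.9, 7.87 and 40.6 FPKM.

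The lid held both the highest and the lowest regulatory subunits. Psmd7 (chromosome 8, 107580381 to 107588464, minus strand), the partner of the deubiquitinase, measured 130.0 and 140.4 FPKM in the A libraries, 116 and 149 in the B libraries and 179 and 180.4 in the C libraries. Both C libraries were higher than all 4 others. Psmd14 (chromosome 2, 61711694 to 61800376, plus strand), the deubiquitinase that takes the ubiquitin chain off the substrate, measured 84.7 and 125 FPKM in the A libraries, 71.4 and 105 in the B libraries and 79.1 and 154 in the C libraries, with the highest value in C2 and the lowest in B1. Psmd12 measured 70.6 and 84.4 FPKM in the A libraries, 101 and 102 in the B libraries and 92.8 and 99.5 in the C libraries, lowest in both A libraries. Psmd6, Psmd11 and Psmd8 had means of 56.7, 45.9 and 24.2 FPKM. Psmd13 and Psmd3 lay at 2.61 to 7.23 FPKM and 3.02 to 6.49 FPKM, on 8 to 38 reads and 17 to 43 reads per library.

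In every library the median core subunit was above the median regulatory subunit. The median over the 14 core subunits was 96.1 and 104 FPKM in the A libraries, 85.5 and 71.3 in the B libraries and 73.8 and 106 in the C libraries. The median over the 17 regulatory subunits was 32.6 and 26.5 FPKM in the A libraries, 26.9 and 39.2 in the B libraries and 45.6 and 40.8 in the C libraries. The ratio of the medians was thus 2.95 in A1, 3.93 in A2, 3.17 in B1, 1.82 in B2, 1.62 in C1 and 2.59 in C2. The parts of each particle differed. By mean level over the 6 libraries, the median subunit was at 109.8 FPKM in the alpha ring and 46.6 FPKM in the beta ring. It was at 51.3 FPKM in the lid, 32.1 FPKM in the base ATPases and 11.9 FPKM in the other base subunits. The beta ring thus lay below the lid, also with the principal transcript length (90.2 against 108.7 FPKM). On the log2(FPKM + 1) scale the median core level exceeded the median regulatory level by 1.72 ± 0.27 in A, 1.24 ± 0.55 in B and 1.02 ± 0.47 in C (SD, n = 2). B1 lay within the range of pair A and C2 within that of pair B, while both C libraries were below both A libraries. No test was made of this difference, since subunits are not replicates. With the principal transcript length it was 1.47, 1.23 and 1.05. With the mean over subunits in place of the median it was 1.76 in A, 1.46 in B and 1.52 in C, so that the order of B and C depended on this choice.

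**Figure D2:**
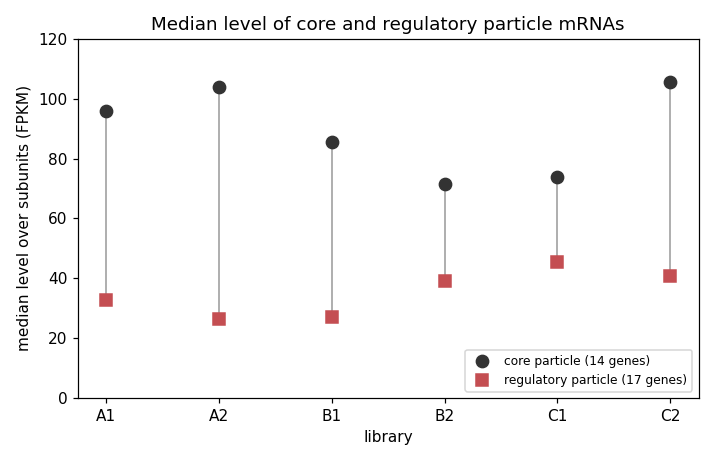
Median level in FPKM of the 14 core subunits (circles) and the 17 regulatory subunits (squares) in each library, joined by a line. The core median is higher in all 6 libraries, and the gap is smallest in C1 (73.8 against 45.6 FPKM) and B2 (71.3 against 39.2 FPKM).

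The library deviations of the core and the regulatory particle were compared next. In B2, 5 of the 14 core and 12 of the 17 regulatory subunits were above their own mean over the 6 libraries, where 52.9% of the tested genes were. In B1, the other library of this pair, 7 of 14 core and 4 of 17 regulatory subunits were, against 52.4% of tested genes. In C1, 16 of 17 regulatory subunits and 5 of 14 core subunits were above their own mean, where 62.2% of the 13443 tested genes were. In C2 both particles were high, with 13 of 14 core and 11 of 17 regulatory subunits above their mean, where 44.4% of tested genes were. In A1, 9 of 14 core and 3 of 17 regulatory subunits were, against 49.3% of tested genes. In A2, 8 of 14 core and 6 of 17 regulatory subunits were, against 43.2% of tested genes. These counts describe single libraries. A2 and C2, where the marker sums were lowest, enter them, and the parts of depth and of library quality were not tested.

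Comparisons between pairs were made with limma on log2(FPKM + 1) for all 13443 genes whose mean reached 1 FPKM, with Benjamini-Hochberg adjustment over all of them and a threshold of 0.05. Of the 50 genes, 46 entered. Psma8, Psmb8, Psmb9 and Psmb11 were below the filter. No gene passed in any comparison, 0 of 13443 (0%) and 0 of these 46 in each of the 3 comparisons (limma, and also limma-voom on the recovered reads). The comparisons share libraries, and each is therefore given by its own values.

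Fold changes with a p are given below for genes of the 46 with an unadjusted p under 0.05 in limma, or for the 2 lowest where there was none. Their adjusted p was 1 for both comparisons of pair C, and 0.991 for B against A (limma). Fold changes of other genes stand beside them without a p. In C against B an unadjusted p under 0.05 was reached by 0 of 46 tested genes with C higher and 2 with C lower, where it was reached by 1.64% and 2.22% of all tested genes (3.85% in both directions). In C against A the counts were 3 higher and 0 lower, against 1.67% and 1.34% of all tested genes (3.01%). In B against A they were 0 and 0, against 2.77% and 1.79% (4.57%). The median spread between the 2 libraries of a pair, over the 46 genes, was 0.32 in A, 0.49 in B and 0.36 in C on the log2 scale, and over all tested genes 0.48, 0.45 and 0.48.

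**Figure D3:**
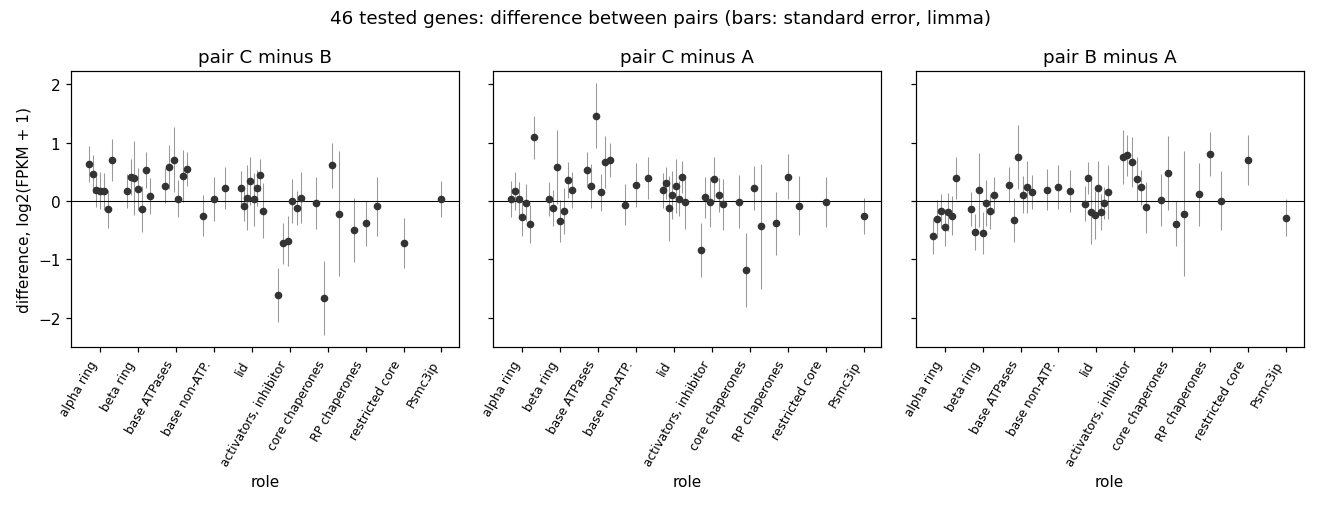
Difference between pairs in log2(FPKM + 1) for the 46 tested genes, by role, with the standard error from limma as bars, in 3 panels (C minus B, C minus A, B minus A). Most differences lie within 1 log2 unit of 0. Psme1 and Psmg2 are the lowest points of C minus B, and Psmc3 and Psma7 the highest of C minus A.

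The comparison of C with B is one of R62D with wild-type actin if the annotation holds, and of uninjected embryos with R62D if the titles hold. Of the 2 genes with an unadjusted p under 0.05, 1 encodes a subunit of PA28, an activator that opens the core without ATP and is best known from interferon-treated cells. Psme1 (chromosome 14, 55578123 to 55581529, plus strand), which encodes PA28 alpha, measured 5.21 and 9.31 FPKM in the A libraries, 15 and 10.4 in the B libraries and 2.33 and 4.99 in the C libraries. Both B libraries were above both C libraries and both A libraries, and B1 was highest. These values rested on 11.5 and 23 reads in the A libraries, 42 and 27.5 in the B libraries and 8 and 10 in the C libraries. The mean of pair C was 3.66 ± 1.88 FPKM, that of pair B 12.7 ± 3.26 FPKM (SD, n = 2). The difference was -1.60 ± 0.46 (log2, SE; limma, unadjusted p = 0.0099). It was -1.18 without C1 and -2.02 without C2. Exons of Psme1 overlap those of Emc9 on the opposite strand, which measured 1.83 to 5.26 FPKM, and since the handling of strand is not given in the sources used here, reads of both genes may be shared.

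Psme2 (chromosome 14, 55587441 to 55591113, minus strand), which encodes PA28 beta and neighbours Psme1, measured 12.6 and 20.03 FPKM in the A libraries, 24.9 and 31.6 in the B libraries and 15.9 and 17.5 in the C libraries. Again both B libraries were the highest of the 6. The difference between C and B was -0.72 ± 0.35 (log2, SE). Psme2b (chromosome 11, 48945354 to 48946190, minus strand), a copy of Psme2, measured 6.96 and 11.2 FPKM in the A libraries, 10.7 and 20.002 in the B libraries and 7.55 and 10.1 in the C libraries, with both B libraries above both C libraries. Reads of Psme2 and Psme2b were counted in fractions in 5 of 6 libraries each, so the values of either as a single gene are uncertain. Psme3, the nuclear PA28 gamma, showed no such order, at 11.5 and 17 FPKM in the A libraries, 14.7 and 23.3 in the B libraries and 17 and 20.2 in the C libraries. Psme4, which encodes the large nuclear activator PA200, was the highest of the activators at 46 and 50.05 FPKM in the A libraries, 64.6 and 49.4 in the B libraries and 49.4 and 54.4 in the C libraries. Psmf1, the inhibitor PI31, lay at 3.59 to 6.52 FPKM.

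Other cell types that could carry the interferon-inducible subunits were checked beside these values. Of 11 blood and immune cell markers, 8 had reads in at least 1 library, with summed counts of 68.5 and 15 reads in the A libraries, 86 and 72 in the B libraries and 52.8 and 11 in the C libraries. Most of the sum in A1 and B1 came from Hba-a1 and Hba-a2, with 34.33 and 25.67 reads in A1 and 40.17 and 31.83 in B1. In B2 they had 22.75 and 13.25 reads. The leukocyte marker Ptprc had 1 read in B1 and 0 elsewhere. Coro1a had 11 reads in B2 and 0 to 3 elsewhere, and Laptm5 had 3 reads in B1 and 0 elsewhere. Lyz2 had at most 3.75 reads, in C1, and Alas2 at most 2, in A1. Cd74, of antigen-presenting cells, measured 3.55 and 1.27 FPKM in the A libraries, 4.21 and 13.1 in the B libraries and 5.02 and 1.95 in the C libraries, highest in B2. Alpha-globin (Hba-a1) was at 4.75 to 42.3 FPKM, highest in A1, and Hbb-bs and Hbb-bt were at 0 throughout. The summed markers of the 2-cell-stage programme were highest in B1 and B2 (1324 and 1736 FPKM). The part of either in the values of Psme1 and Psme2 was not tested.

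Psmg2, which forms with Psmg1 a chaperone of alpha ring assembly, was the other gene with an unadjusted p under 0.05 in C against B. It measured 17 and 8.45 FPKM in the A libraries, 14.2 and 20.6 in the B libraries and 9.71 and 2.08 in the C libraries. Both B libraries were above both C libraries, while A1 lay with B and A2 with C. C2 rested on 2 reads against 16 in C1, 19 in B1 and 26 in B2. The difference was -1.65 ± 0.63 (log2, SE; limma, unadjusted p = 0.0336). Without C2 it was -0.76 (limma, unadjusted p = 0.234), and without C1 it was -2.55. Psmg1 lay at 7.79 to 17.7 FPKM and Psmg3 at 3.47 to 7.44 FPKM. Psmg4 measured 1.8 and 6.45 FPKM in the A libraries, 2.85 and 3.02 in the B libraries and 10.4 and 0 in the C libraries, with a maximum of 9 reads per library. In C2 a count of 0 allows up to 3 reads.

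Differences of most standard subunits had the opposite sign. Those of C against B were above 0 for 12 of 14 core subunits (median 0.20) and 14 of 17 regulatory subunits (median 0.23), where 49.9% of all 13443 tested genes were above 0, with a median of 0.00. The core count was 8 of 14 without C2 (median 0.05) and 13 of 14 without C1 (median 0.43). Of all tested genes 57.5% were above 0 without C2 (median 0.10) and 43.8% without C1 (median -0.08). The regulatory count was 8 of 17 without B1 (median -0.07), 14 of 17 without B2 (median 0.47) and 10 of 17 without C1 (median 0.18). Pairs did not overlap for 9 of the 46 tested genes with C higher, where 15.5% of all tested genes did so, and for 6 with C lower, where 14.8% did so. The 9 were Psma1, Psma7, Psmb3, Psmb6, Psmc2, Psmc6, Psmd6, Psmd7 and Psmg3, and the 6 were Psmb10, Psmd12, Psme1, Psme2, Psme2b and Psmg2.

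The comparison of C with A is one of R62D with uninjected embryos if the annotation holds, and of uninjected embryos with wild-type actin if the titles hold. A subunit of the alpha ring and 2 ATPases of the base had an unadjusted p under 0.05, all higher in C. Psma7, which encodes an outer ring subunit, measured 11.4 and 16 FPKM in the A libraries, 14.2 and 22.9 in the B libraries and 30.3 and 29.4 in the C libraries. The C libraries lay within 1 FPKM of each other and above the 4 others. The mean of pair C was 29.9 ± 0.652 FPKM and that of pair A 13.7 ± 3.27 FPKM (SD, n = 2), a difference of 1.09 ± 0.36 (log2, SE; limma, unadjusted p = 0.019). Reads numbered 35 to 145 per library.

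Psmc3 (chromosome 2, 91054009 to 91066369, plus strand), an ATPase of the base, measured 3.45 and 4.8 FPKM in the A libraries, 3.94 and 13.8 in the B libraries and 15.3 and 11 in the C libraries. B1 and both A libraries were low, and B2 and both C libraries were high, so that pair B spanned the gap. The difference between C and A was 1.46 ± 0.55 (log2, SE; limma, unadjusted p = 0.032). The counts behind these levels were 9 and 14 reads in the A libraries, 13 and 43 in the B libraries and 62 and 26 in the C libraries. Slc39a13, whose exons overlap those of Psmc3 on the opposite strand, reached at most 0.226 FPKM. Psmc6 (chromosome 14, 45329788 to 45349705, plus strand), another ATPase of the ring, measured 32.6 and 26.5 FPKM in the A libraries, 31.9 and 34 in the B libraries and 45.6 and 51.7 in the C libraries. Both C libraries exceeded the other 4. The difference was 0.71 ± 0.29 (log2, SE; limma, unadjusted p = 0.0459). Its promoter window is among those printed above.

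All 6 ATPases of the base had coefficients above 0 in C against A, with a median of 0.60, where 56.5% of all tested genes were above 0 with a median of 0.06. In C against B, which shares pair C, all 6 were above 0 as well, with a median of 0.49. With median scaling, and also with quantile normalization, all 6 were above 0 in both. In C against B the count was 4 of 6 without B1 and 5 of 6 without B2 or without C1, and in C against A it was 5 of 6 without A2. Of the 17 regulatory subunits 14 were above 0 in C against A (median 0.25). Their count was 13 of 17 after median scaling (median 0.20) and after quantile normalization (median 0.21). It was 11 of 17 without A1 (median 0.25), where 56.9% of all tested genes were above 0. It was 15 of 17 without A2 (median 0.32), 13 of 17 without C1 (median 0.23) and 16 of 17 without C2 (median 0.37). For the core 8 of 14 were above 0 (median 0.03). That count was 5 of 14 after median scaling (median -0.02), 6 of 14 after quantile normalization (median -0.04), 3 of 14 without C2 (median -0.13) and 10 of 14 without C1 (median 0.25). Of all tested genes 51.4% were above 0 after median scaling and 51.7% after quantile normalization. The share was 61.8% without C2 (median 0.17) and 48.2% without C1 (median -0.01). Pairs did not overlap for 11 of 46 tested genes with C higher, where 16.5% of all tested genes did so, and for 4 with C lower, where 10.4% did so. Of the 11, 8 were regulatory subunits, Psmc1, Psmc3, Psmc5, Psmc6, Psmd4, Psmd7, Psmd11 and Psmd12.

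The comparison of B with A is one of wild-type actin with uninjected embryos if the annotation holds, and of R62D with wild-type actin if the titles hold. The lowest unadjusted p values were those of Psme2 and Psmd5, and neither was under 0.05. Psme2 averaged 28.3 ± 4.78 FPKM over pair B and 16.3 ± 5.25 FPKM over pair A (SD, n = 2), a difference of 0.78 ± 0.35 (log2, SE; limma, unadjusted p = 0.0601). It was 0.47 without A1 and 1.09 without A2. Psme1 differed by 0.76 ± 0.46 and Psme2b by 0.67 ± 0.43 (log2, SE). Psmd5 (chromosome 2, 34849734 to 34874968, minus strand), a chaperone of base assembly, measured 15.2 and 17.3 FPKM in the A libraries, 29 and 29.1 in the B libraries and 30.6 and 15.8 in the C libraries. The B libraries were alike and above both A libraries, while C1 lay with B and C2 with A. The difference was 0.80 ± 0.38 (log2, SE; limma, unadjusted p = 0.0719). The other base chaperones, Psmd9 and Psmd10, lay at 1.82 to 4 FPKM and 4.87 to 14.3 FPKM.

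Of the 14 core subunits 11 had coefficients below 0 in B against A, with a median of -0.19, where 55.1% of all tested genes were above 0, with a median of 0.07. The count below 0 was 10 of 14 without B2 (median -0.07) and 9 of 14 without B1 (median -0.32). With median scaling, and also with quantile normalization, the count was 11 of 14. On the log2 scale Psma1 gave the largest such difference (-0.59 ± 0.31, SE), averaging 80.7 ± 12.3 FPKM over pair B and 124 ± 29.5 FPKM over pair A (SD, n = 2). Of the 17 regulatory subunits 11 had coefficients above 0 (median 0.16). That count was 5 of 17 without B2 (median -0.17), 15 of 17 without B1 (median 0.32), 15 of 17 without A2 (median 0.07) and 9 of 17 without A1 (median 0.05). Of all tested genes 54.8% were above 0 without B2, 54.4% without B1, 51.8% without A2 and 56.0% without A1. Pairs did not overlap for 7 of 46 tested genes with B higher, where 18.8% of all tested genes did so, and for 6 with B lower, where 12.8% did so. Of the 6, 5 were core subunits, Psma1, Psma4, Psma6, Psmb2 and Psmb4.

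**Figure D4:**
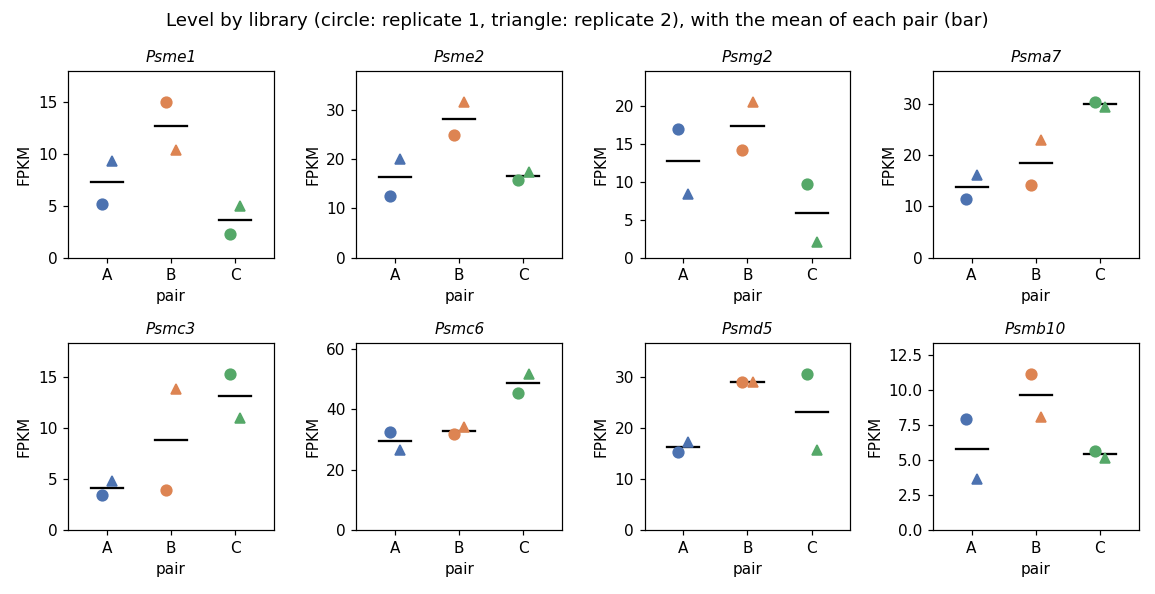
Level in FPKM (vertical axis, from 0) of 8 genes by pair (horizontal axis), with 1 point per library and a bar at the mean of each pair. Psme1, Psme2 and Psmb10 have both B libraries above all others, and Psma7 and Psmc6 have both C libraries above all others, while Psmc3 in pair B and Psmd5 in pair C are split between their libraries.

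The core subunits that replace standard ones in certain tissues were low or at 0. The immune subunits take the places of the catalytic subunits in cells of the immune system and after interferon. Psmb8 (chromosome 17, 34197721 to 34201454, plus strand), which replaces Psmb5, had 0 reads in all 6 libraries, which allows up to 3 reads or 0.705 to 1.21 FPKM per library. Psmb5 was at 50.3 to 94 FPKM. Psmb9 (chromosome 17, 34181988 to 34187764, minus strand), which replaces Psmb6 and neighbours Psmb8, had 3 and 4 reads in B1 and B2, 1 read in C1 and 0 in A1, A2 and C2. Only Psmb10 (chromosome 8, 105935735 to 105938444, minus strand), which replaces Psmb7, passed the filter. It measured 7.92 and 3.67 FPKM in the A libraries, 11.1 and 8.1 in the B libraries and 5.66 and 5.17 in the C libraries, on 7 to 24 reads per library. Both B libraries were the highest of the 6 by a small margin over A1. The differences were -0.71 ± 0.43 in C against B and 0.70 ± 0.43 in B against A (log2, SE).

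Psmb11 (chromosome 14, 54621433 to 54629556, plus strand), the subunit of the thymus, had 5 reads in A1, 2 in B1, 3 in B2 and 0 in A2, C1 and C2. Psma8, which replaces Psma7 in the male germ line, had 0 reads in all libraries, which allows up to 1.14 to 1.95 FPKM per library. Of 9 sperm and spermatid markers, 6 were detected, with 46 to 98 reads in a library, the majority from Ldhc, and Prm1, Tnp2 and Odf1 were at 0. Of 9 cumulus and granulosa cell markers, 4 were detected, with 0 to 14 reads per library. Fewer cells with a transcript and less of it per cell cannot be told apart in pools.

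Other genes of the ubiquitin and proteasome pathway, 38 of a list of 43 symbols, were found in the table, and 36 were tested. None passed over all genes in any comparison (limma). Of all tested genes, 3.85% reached an unadjusted p under 0.05 in C against B, 3.01% in C against A and 4.57% in B against A. Of the pathway genes, 0 of 36 did so in both comparisons of pair C, and 1 of 36 in B against A. That gene was Nfe2l2, a transcription factor of the antioxidant response that also acts on proteasome genes. It measured 2.63 and 2.36 FPKM in the A libraries, 9.997 and 10.8 in the B libraries and 9.82 and 3.48 in the C libraries. Both B libraries and C1 were high, and both A libraries and C2 were low. The difference between B and A was 1.71 ± 0.48 (log2, SE; limma, unadjusted p = 0.00872, adjusted p = 0.931). Its relative Nfe2l1, the main activator of proteasome genes when the proteasome is blocked, measured 1.15 and 0.575 FPKM in the A libraries, 2.25 and 3.23 in the B libraries and 2.78 and 1.62 in the C libraries, on 3.5 to 23.5 reads.

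Subunits with other names were measured as well. Adrm1, a ubiquitin receptor of the base, had a mean of 9.86 FPKM, and Sem1, a small lid subunit, one of 25.1 FPKM. Pomp, a chaperone of core maturation, measured 24.8 and 26.5 FPKM in the A libraries, 17.6 and 12.7 in the B libraries and 21.6 and 35.3 in the C libraries. It was lowest in B2 and highest in C2. The deubiquitinases Usp14 and Uchl5 had means of 24.1 and 15.1 FPKM. Usp14 ranged from 8.02 FPKM in C1 to 45.9 FPKM in C2, the 2 libraries of 1 pair. Among ubiquitin genes Ubb had the highest mean, 1417 FPKM. Akirin2, which brings proteasomes into the nucleus, had a mean of 81.6 FPKM.

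Copies and overlaps limit single values. Of the 50 genes, 34 had a read count that was not whole in at least 1 library (tolerance 0.001 read), as arises where shared reads are counted in fractions. The 4 pseudogene rows that carry a subunit's name, Psmb5-ps, Psmb6-ps, Psmb6-ps2 and Psmb7-ps2, reached at most 4.21 FPKM. Exons of 15 of the 50 genes overlap exons of another gene of the table, on the opposite strand for 12 of them. Over the 46 tested genes the highest library was a median of 2 times the lowest, leaving out Psmg4, which was at 0 in C2.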

How the data were processed

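The deposited table gives the authors' FPKM of 53023 genes in 6 libraries beside gene lengths, and no spike-in rows. Per the submitters' processing notes, Trimmomatic, Trim Galore, cutadapt, STAR and featureCounts were used with mouse build mm10. Which versions, gene annotation and strand setting were used is not given in the sources used here. Titles placed the 6 samples in 3 pairs.

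Reads were recovered as FPKM times length divided by the value of 1 read in each library (907210 to 1555431 reads). Values were taken as log2(FPKM + 1), which understates the change of low genes, where the mean reached 1 FPKM. In limma 3.58.1 (R 4.3.3, variance trend) 1 model with a mean for each pair covered all libraries, with two-sided p adjusted by Benjamini-Hochberg over 13443 genes. The model was also run on simulated data with planted changes larger than any named here. That run does not show its power for changes of the size seen in these pairs. Genes, lists, motifs and the naming rule were chosen with earlier results of these data known. The naming rule gives levels for every gene, and fold changes for genes past the adjusted threshold, otherwise those with an unadjusted p under 0.05, otherwise the 2 lowest. Psmb10, Psma1, Psme1, Psme2 and Psme2b have further fold changes or means outside this rule, and the pathway genes given by level were picked after their values were seen. Motifs were searched in RefSeq promoters (GRCm38.p6), and coordinates are those of the table. Alternatives were another pseudocount (0.1), other filters (none, 5 FPKM), median scaling, quantile normalization, no trend, compared pairs only, the replicate block, limma-voom, leaving out libraries and another gene length.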

Additional observations from a re-analysis of the deposited data

How the results depend on the processing

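No proteasome gene passed under any of the 16 alternatives in any comparison (limma). Over all genes the count stayed at 0 except with a pseudocount of 0.1 in C against B, where 1 gene passed, Igkv13-87, an immunoglobulin pseudogene in the table's annotation. The 8 named fold changes kept their direction under all 16 alternatives, with adjusted p between 0.671 and 1. The difference between core and regulatory particle in C was 1.02 with the median and 1.52 with the mean over subunits, while B went from 1.24 to 1.46. With the replicate number as a block, 0 genes passed in each comparison, and genes with an unadjusted p under 0.05 went from 518 to 671 in C against B, from 405 to 497 in C against A and from 614 to 724 in B against A. Deviations of libraries with the same number had r over genes of 0.098 for A and B, 0.203 for A and C and 0.00499 for B and C. On principal component 1, A2 and C2 (49.3 and 49.7) lay together and apart from A1 and C1 (-32.7 and -30.0). Whether replicates of the same number in A and C share a set was not tested. The numbers were not taken as pairs in the main model. The settings chosen after seeing the data were the principal transcript length and leaving out both A2 and C2. Without A2 and C2, Psmg2 in C against B was -0.76, Psmc6 in C against A was 0.47 and Psme1 in C against B was -2.02 (log2). The cause of these shifts was not tested. With 2 pools per pair, genes with few reads, such as Psme1, Psmc3 and Psmg2, are limited by counting error.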
